A study of Mus musculus with 6 samples.

Results

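Panobinostat (PB) is a hydroxamic acid that inhibits histone deacetylases, the enzymes that remove acetyl groups from histones. RNA from whole ovaries of mouse embryos was sequenced at E15.5 (days of embryonic development). In the PB group, pregnant C57Bl6j females had received panobinostat by oral gavage from E6.5 at 5 mg/kg, and in the control group they had received the same volume of DMSO and water. The labels describe a daily dose and the methods of the study an alternate-day dose. Each of the 6 libraries, 3 control and 3 PB, came from a pool of ovaries, and the labels give the pool once as 4 and once as 6 to 8 ovaries. The litters behind each pool are not given, so p-values measure the spread between pools.

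The 7 genes described here encode germ cell proteins that bind RNA and control its translation, namely Ddx4, Dazl, Nanos1, Nanos3, Pum2, Cpeb1 and Ybx2. They were taken by name, and the counts of all transcripts carrying the name were summed per gene. This gave 60 of the 114412 transcripts and 7 of the 35974 gene names in the count table. All 7 genes and 43 of the 60 transcripts passed the filter on low counts.

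Fetal germ cells store many messenger RNAs and translate them later, which lets meiosis and oocyte growth proceed under control exerted after transcription. DAZL binds the 3′ ends of germ cell messages and favours their translation, and it is needed for primordial germ cells to become competent for meiosis. DDX4, the mouse Vasa protein, is an RNA helicase of germ granules that is widely used as a germ cell marker. CPEB1 binds U-rich elements near the poly(A) site and governs poly(A) tail length, and it is required for passage of mouse oocytes through meiotic prophase. YBX2 (also called MSY2) coats and stabilises stored messages in oocytes. PUM2 and the NANOS proteins act in the opposite direction, as a PUF repressor with a defined binding motif and as zinc-finger proteins that bring the CCR4-NOT deadenylase to a message. NANOS3 protects primordial germ cells from death.

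The promoters of Ddx4 and Dazl are methylated in somatic cells and lose DNA methylation as the germ line forms, and the sequences below are shown because CG dinucleotides are where that methylation sits. The Cpeb1 window is shown because its counts were divided differently between start sites in these pools, a difference that the main test (edgeR, below) did not call. The Nanos3 window is shown because it stands apart in base composition. Each run is the 250 bases before 1 RefSeq start of the gene on GRCm38.p6, written 5′ to 3′ on the gene's strand, with every CG in capitals. The motif searched was CG, which reads the same on both strands.
Ddx4 promoter: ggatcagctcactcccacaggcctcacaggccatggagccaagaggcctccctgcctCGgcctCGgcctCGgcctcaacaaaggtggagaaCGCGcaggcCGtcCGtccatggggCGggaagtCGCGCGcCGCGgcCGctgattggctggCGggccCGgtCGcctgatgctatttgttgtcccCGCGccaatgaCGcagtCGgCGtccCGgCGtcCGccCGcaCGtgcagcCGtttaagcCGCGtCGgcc
Dazl promoter: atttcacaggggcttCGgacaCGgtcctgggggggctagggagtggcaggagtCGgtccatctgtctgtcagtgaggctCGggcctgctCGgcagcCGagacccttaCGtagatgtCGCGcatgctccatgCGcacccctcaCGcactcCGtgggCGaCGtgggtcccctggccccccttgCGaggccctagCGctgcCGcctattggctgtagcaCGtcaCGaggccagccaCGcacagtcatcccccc
Cpeb1 promoter: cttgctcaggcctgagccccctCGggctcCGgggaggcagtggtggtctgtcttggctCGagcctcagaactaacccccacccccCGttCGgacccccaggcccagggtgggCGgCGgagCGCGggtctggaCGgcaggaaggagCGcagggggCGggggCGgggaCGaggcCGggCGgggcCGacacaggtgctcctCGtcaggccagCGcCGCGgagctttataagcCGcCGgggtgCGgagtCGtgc
Nanos3 promoter: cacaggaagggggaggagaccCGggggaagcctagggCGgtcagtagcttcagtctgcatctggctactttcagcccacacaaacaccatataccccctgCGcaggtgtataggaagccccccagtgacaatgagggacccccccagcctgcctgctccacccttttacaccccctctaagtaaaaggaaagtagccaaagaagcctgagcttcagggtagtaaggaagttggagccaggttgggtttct

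The Ddx4 window lies at chr13:112652311-112652560 on the minus strand and holds 31 CG dinucleotides. The Dazl window, chr17:50293621-50293870 on the minus strand, holds 20. The Cpeb1 window, chr7:81454759-81455008 on the minus strand, holds 25. The Nanos3 window, chr8:84176553-84176802 on the minus strand, holds 3. Other starts exist, and the Ddx4 and Cpeb1 windows lie downstream of a farther predicted RefSeq start. The Nanos3 window lies before the start of NM_194059.2 but inside the first exon of XM_006530981.2, and the assembled transcript with most of the counts starts 7606 bases upstream of NM_194059.2. At least 1 CG was present in 92.1% of the 32851 RefSeq promoter windows of this length, and their median was 6. Only 5.19% of windows held as many as Ddx4, and 17.9% as many as Dazl. Nanos3 was alone among the 7 genes in falling below the median, since the windows of Nanos1, Pum2 and Ybx2 held between 25 and 36.

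The libraries held 97165644 to 125985399 assigned counts each. Germ cell and pregranulosa markers were abundant in every pool. The 10 germ cell markers (such as Sycp3, Stra8 and Mael) summed to 611 to 753 CPM (counts per 1000000 library counts) in control and 519 to 913 CPM in PB pools. The 8 pregranulosa markers (such as Foxl2 and Wnt4) summed to 1808 to 2015 CPM in control and 1827 to 2008 CPM in PB pools. The 5 Sertoli markers, which should be low in an ovary, summed to 18.8 to 24.3 CPM, and none of these lists had a member at 0 everywhere. In bulk tissue, fewer germ cells and less RNA per germ cell cannot be told apart. Pools 2 of both groups stood apart in germ cell signal, as described with the members. The gene sums of the members and the start sites compared for Cpeb1 are given with and without these pools.

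None of the 7 genes was called between PB and control. A call required a change of 2-fold or more and a false discovery rate (FDR, the Benjamini-Hochberg adjusted p-value) no higher than 0.05 in edgeR's quasi-likelihood test, which called 3 of 19435 genes, or 0.0154%. DESeq2, at the same thresholds, also called none of the 7, and 0.0539% of the genes to which it gave an adjusted p. With so few calls anywhere, 0 of 7 says little about the members themselves. The smallest FDR among the 7 was 0.888, no member had an unadjusted p under 0.05 (against 4.46% of all genes tested), and their median log2 fold change was -0.0031 beside 0.0020 for all genes tested. The intervals limit what could have been missed. Their 95% limits reached from 0.671-fold (Ddx4) to 1.55-fold (Ybx2), so a change of 2-fold in the group mean lay outside the interval of every member.

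**Figure D1:**
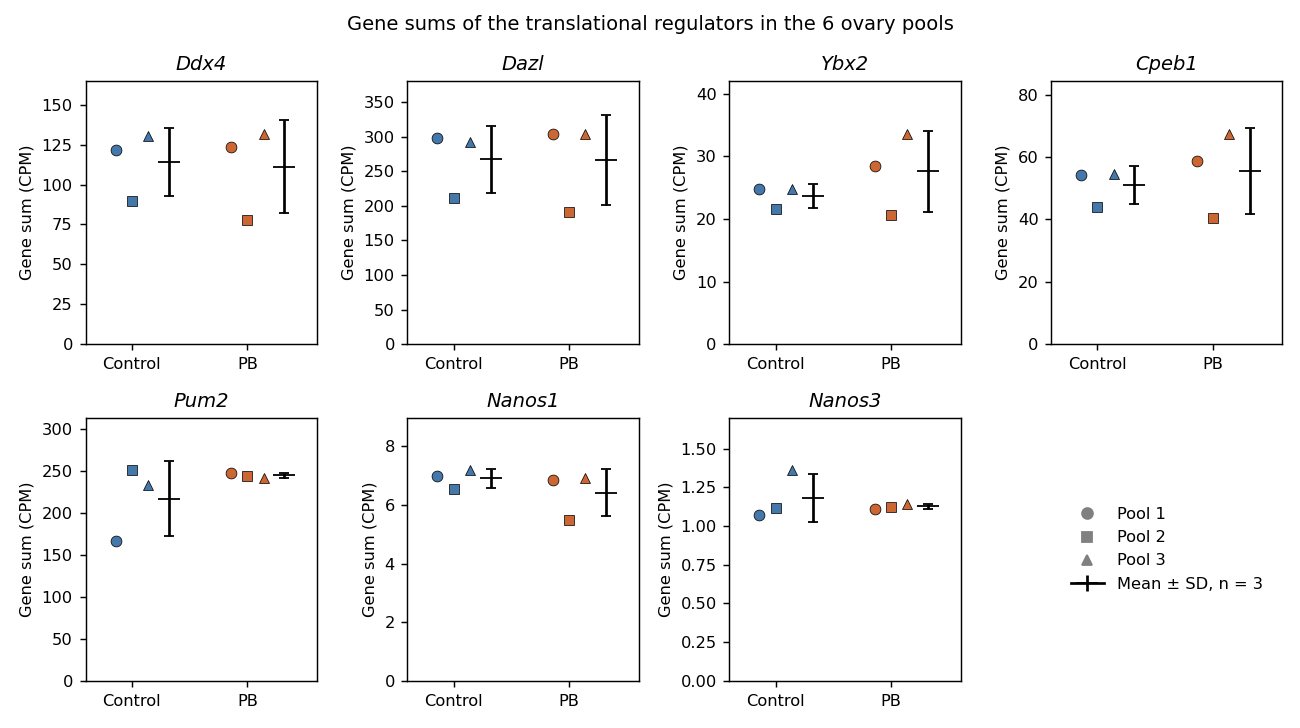
Gene sums in CPM (vertical axes, linear from 0) of the 7 genes in the control and PB pools, with the pool number as the symbol and the mean ± SD (n = 3) as the bar. In each panel the control and PB pools overlap, and pools 2 (squares) lie lowest in both groups for Ddx4, Dazl, Ybx2, Cpeb1 and Nanos1.

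Dazl, the activator, was the most abundant member. It stood at 298, 211 and 292 CPM in control pools 1 to 3 and at 304, 191 and 304 CPM in the PB pools. The groups overlapped, and in both of them pool 2 was low while pools 1 and 3 lay close together. The means were 267 ± 48.8 (SD, n = 3) in control and 266 ± 65.2 in PB, a log2 fold change of -0.0031 ± 0.21 (SE, edgeR FDR = 0.999). Leaving out pool 2 of both groups, a choice made after seeing the data, gave 0.04 ± 0.04 (FDR = 0.709). These pools were picked for their low values, so a smaller SE without them, here and below, is not added precision.

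Ddx4, the helicase, had the same profile at a lower level. It stood at 122, 89.7 and 130 CPM in control and at 124, 77.7 and 132 CPM in PB pools. The group means of 114 ± 21.4 and 111 ± 29.2 CPM (SD, n = 3) differed by far less than the spread within either group. The log2 fold change was -0.04 ± 0.22 (SE, edgeR FDR = 0.983), and without the 2 low pools it was 0.02 ± 0.05 (FDR = 0.916). Relative to the summed germ cell markers of the same pool, Ddx4 was 16.2%, 14.7% and 17.6% in control and 14.6%, 15% and 14.5% in PB pools. On that scale PB pool 2 no longer stood apart from the other PB pools.

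Ybx2, the message-coating protein, stood at 24.8, 21.5 and 24.7 CPM in control and at 28.4, 20.7 and 33.6 CPM in PB pools. PB pools 1 and 3 lay above every control pool and PB pool 2 below all of them. Its log2 fold change was the highest of the 7, at 0.22 ± 0.17 (SE, edgeR FDR = 0.888), and without pools 2 it was 0.33 ± 0.10 (FDR = 0.363).

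Cpeb1, the cytoplasmic polyadenylation factor, stood at 54.2, 43.9 and 54.7 CPM in control and at 58.7, 40.4 and 67.5 CPM in PB pools. As for Ybx2, PB pools 1 and 3 were above and PB pool 2 below the whole control range. The log2 fold change was 0.12 ± 0.19 (SE, edgeR FDR = 0.916), or 0.21 ± 0.08 (FDR = 0.421) without pools 2. As a share of the germ cell marker sum, Cpeb1 ranged only from 6.94% to 7.80% over the 6 pools.

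Pum2, the repressor, is expressed in most tissues, and its profile did not follow the germ cell signal. It stood at 167, 251 and 234 CPM in control and at 248, 244 and 241 CPM in PB pools. Here control pool 1 alone was low, and the PB pools lay within the control range. The log2 fold change was 0.17 ± 0.14 (SE, edgeR FDR = 0.888) with all pools and 0.01 when control pool 1 was left out. Without pools 2 it was 0.29 ± 0.16 (FDR = 0.565). With RefSeq transcripts alone, which held a minor part of its counts, it was 0.57 ± 0.19 (FDR = 0.917). The levels were then 4.06, 5.75 and 5.67 TPM in control and 9.63, 8.27 and 6.95 TPM in PB pools, without overlap. Of all genes tested, 10.7% had gene sums in CPM that did not overlap between groups.

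The NANOS genes were the least abundant members. Nanos1 stood at 6.99, 6.54 and 7.18 CPM in control and at 6.84, 5.49 and 6.92 CPM in PB pools, with only PB pool 2 below the control range (log2 fold change -0.11 ± 0.12, edgeR FDR = 0.895). Nanos3 stood at 1.07, 1.11 and 1.36 CPM in control and at 1.11, 1.12 and 1.14 CPM in PB pools, so that all PB pools fell inside the control range (log2 fold change -0.07 ± 0.17, edgeR FDR = 0.949). Without pools 2 the values were -0.04 ± 0.09 (FDR = 0.894) for Nanos1 and -0.11 ± 0.24 (FDR = 0.896) for Nanos3.

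**Figure D2:**
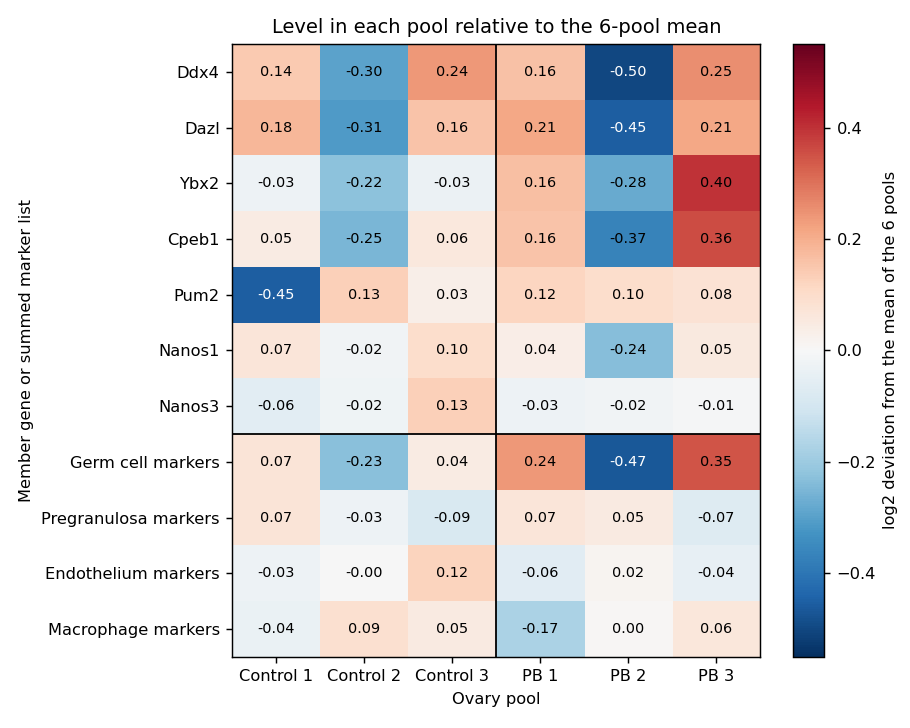
Deviation of each pool (horizontal axis) from the 6-pool mean on the log2 scale, of log2(CPM + 1) for the 7 genes and of the log2 summed CPM for 4 marker lists (vertical axis), with the value printed in each cell. Control 2 and PB 2 are low for Ddx4, Dazl, Ybx2, Cpeb1 and the germ cell markers (-0.23 and -0.47 for the marker sum), while the pregranulosa sum stays within 0.09 of its mean.

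The low pools were a shared feature of the germ cell genes. Among members, 5 of 7 were lowest in pool 2 of both groups, as were 6 of 10 germ cell markers, beside 17.2% of the 19435 genes tested. The pregranulosa marker sum of control pool 2 (1879 CPM) and PB pool 2 (1985 CPM) lay inside the range of the other pools. The red cell sum, made of globin and other erythroid genes, was highest in control pool 2 at 31933 CPM, whereas PB pool 2 had 18342 CPM. The part of tissue composition in these values was not tested.

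Many genes shared this profile over the 6 pools. For Ddx4, 488 of the other 19434 genes tested (2.51%) had a Pearson r above 0.9 on log2(CPM + 1), and the 3 highest were Plekhg4 (0.997), Xlr5c (0.994) and Fam160a1 (0.993). For Dazl, 533 genes (2.74%) passed that level, led by Ripk4 (0.996), Gm32178 (0.993) and Ctsl (0.993). These are descriptions over 6 pools that share the 2 low pools, and no test is attached to them. Plekhg4, for example, read 5.88 CPM in control pool 2 and 5.16 CPM in PB pool 2, against 7.52 to 8.20 CPM in the others.

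Per unit of transcript length, on the TPM scale (length-corrected and set to 1000000 per library) averaged over the 6 pools, the order was Dazl (136), Ddx4 (59.8), Pum2 (58.8), Cpeb1 (34.8), Ybx2 (24.4), Nanos1 (2.58) and Nanos3 (2.49). Neighbours in that order were not always distinct. Ddx4 (40.9 to 75.6 TPM over pools) and Pum2 (41.3 to 67.2 TPM) overlapped, as did Cpeb1 (29.2 to 42.7 TPM) with Ybx2 (18.4 to 33.6 TPM) and Nanos1 (2.1 to 2.83 TPM) with Nanos3 (2.17 to 3.06 TPM). Dazl, at 97.2 to 167 TPM, lay above all others in every pool.

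The order also depended on which transcripts were counted. StringTie had assembled transcripts from the reads in addition to the RefSeq ones. With RefSeq transcripts alone, Pum2 stood at 6.72 TPM and Nanos3 at 0.700 TPM, because assembled transcripts held most of their counts, and Cpeb1 stood at 20.1 TPM. The Cpeb1 difference was 1 assembled fragment of 888 bases inside an intron, which took 11.6% to 23% of the counts of the gene and held none of its coding bases. Ddx4, Dazl, Nanos1 and Ybx2 had no assembled transcript.

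None of the relatives of the members was called. Of 7 relatives listed, 6 were tested and 0 were called, with a median log2 fold change of 0.0082. Boll, the BOULE homologue in the DAZ family, averaged 22.8 ± 1.17 CPM over the control and 25.4 ± 4.6 CPM over the PB pools (SD, n = 3), or 0.15 ± 0.13 as log2 fold change (SE, edgeR FDR = 0.888). Among the CPEB paralogues, Cpeb2, Cpeb3 and Cpeb4 had log2 fold changes of 0.14, 0.02 and -0.0017, and the cold-shock proteins Ybx1 and Ybx3 had -0.05 and -0.17, all with an FDR of at least 0.888. Nanos2, the male germ line member of the NANOS family, had 0 to 8 counts per pool and was not tested.

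**Figure D3:**
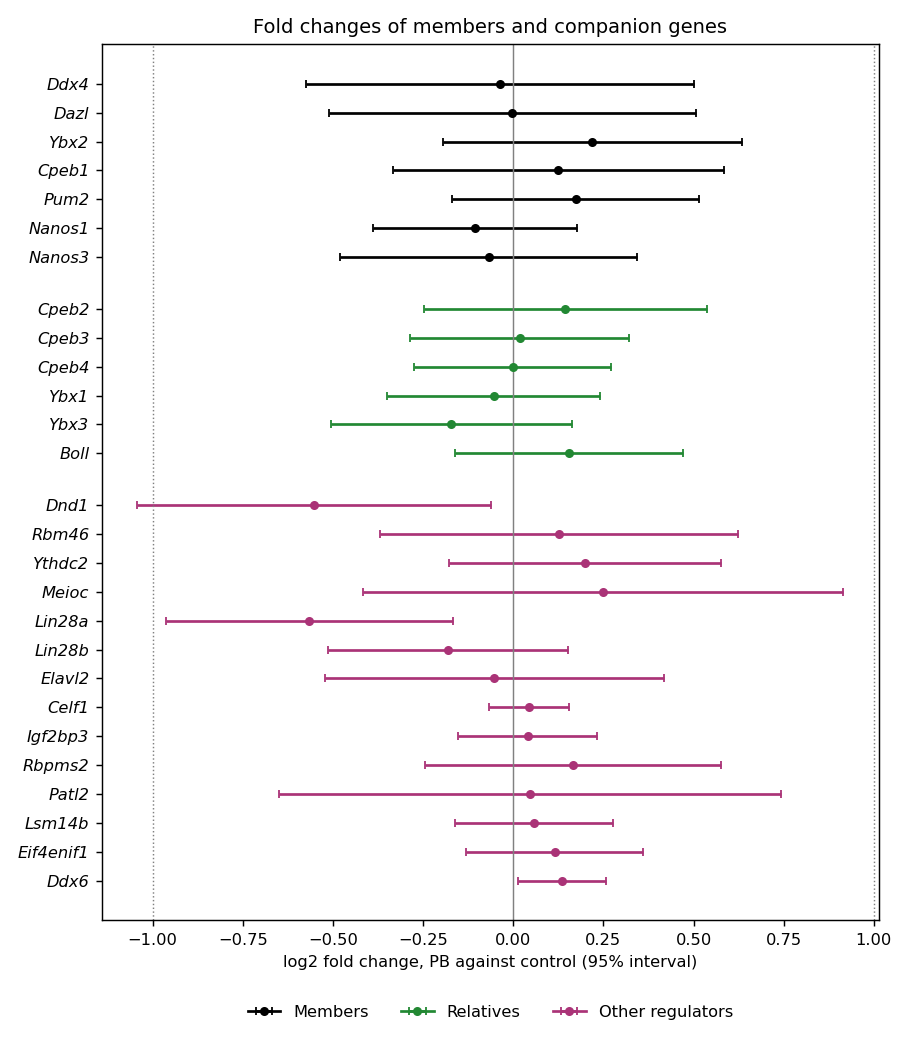
Log2 fold change of PB against control (horizontal axis) with its 95% interval for the 7 members, their 6 tested relatives and 14 other germ cell RNA regulators (vertical axis), from edgeR, with dotted lines at a 2-fold change. Every member's interval includes 0, and those of Dnd1, Lin28a and Ddx6 do not, although none passed the FDR threshold.

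Of 17 other RNA regulators of germ cells, 14 were tested and 0 were called, with a median log2 fold change of 0.05. An unadjusted p under 0.05 was reached by 2 with a negative and 1 with a positive value. Lin28a, which blocks let-7 maturation and marks early germ cells, stood at 33.6, 22.4 and 34.8 CPM in control and at 19.5, 21 and 20.9 CPM in PB pools. The groups did not overlap, as for 10.7% of all genes tested, but control pool 2 lay near the PB pools (log2 fold change -0.57 ± 0.17, edgeR FDR = 0.888). Dnd1, the NANOS partner of the germ line, stood at 10.9, 7.81 and 11.6 CPM in control and at 5.72, 8.52 and 6.38 CPM in PB pools, where PB pool 2 was above control pool 2 (-0.55 ± 0.20, FDR = 0.888).

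Ddx6, the helicase of P-bodies, was the one with a positive value. The control pools read 253, 248 and 255 CPM and the PB pools 263, 294 and 273 CPM (0.13 ± 0.05, edgeR FDR = 0.888), so every PB pool was above every control pool. Such a separation, in either direction, was seen for 10.7% of all genes tested. The highest value in the list belonged to Meioc, the meiotic partner of Ythdc2, at 0.25 ± 0.28, followed by Ythdc2 itself at 0.20 ± 0.16. Ddx6 (72.3 TPM) and Rbpms2 (76.5 TPM) had the highest levels per length. Zar1l and Eif4e1b were at 0 in every pool and Zar1 had 2 to 14 counts per pool, and these 3 oocyte genes were not tested.

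The machinery that these proteins recruit had no called member either. Of 22 poly(A) tail factors, 21 were tested and 0 were called, none had an unadjusted p under 0.05, and the median log2 fold change was 0.0020. The values ran from -0.24 ± 0.55 (Pabpc1l, at 0.295 and 0.250 CPM) and -0.08 ± 0.11 (Pan3, a deadenylase subunit) to 0.09 ± 0.09 (Cnot4) and 0.13 ± 0.06 (Cnot6l, a CCR4-type deadenylase). Pabpc1, the cytoplasmic poly(A)-binding protein, and Sympk, a scaffold of 3′ end processing, had the highest levels, at 944 and 90.1 TPM. Btg4, an oocyte deadenylase adaptor, had 0 to 14 counts per pool and was not tested.

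Among the germ cell markers used as a reference, Kit (-0.29 ± 0.06), Pou5f1 (-0.58 ± 0.20) and Dppa3 (-0.52 ± 0.21) had an unadjusted p under 0.05, each with an FDR of 0.888, beside 4.46% of all genes tested. The 10 markers as a whole were divided, 5 with a positive and 5 with a negative value around a median of 0.08, from -0.58 to 0.38 (Taf7l). Pou5f1 stood at 30.6, 18.2 and 30.7 CPM in control and at 17.0, 17.6 and 18.7 CPM in PB pools, with control pool 2 inside the PB range. Control pools 1 and 3 were thus set apart from the other 4 pools for Pou5f1, Dppa3, Lin28a and Dnd1, which was not the profile of the 7 members.

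At the level of single transcripts, none of the 43 tested was called by edgeR, beside 0.0332% of the 51227 tested in the table. Transcript counts of one gene are estimates that divide reads between overlapping models, and their biological coefficient of variation was 98.4% against 20.9% for gene sums. An unadjusted p under 0.05 was reached by 4 member transcripts, 3 of Cpeb1 and 1 of Pum2, against 3.56% of all those tested, and the smallest FDR was 0.707. DESeq2, run on the same counts, called 1 transcript of Cpeb1 and 1 of Pum2 out of 52 with an adjusted p, while it called 1.85% of all transcripts with one. The transcripts were therefore also summed over start-site groups, within which the exact starts can differ, a step chosen after the transcript counts had been seen.

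**Figure D4:**
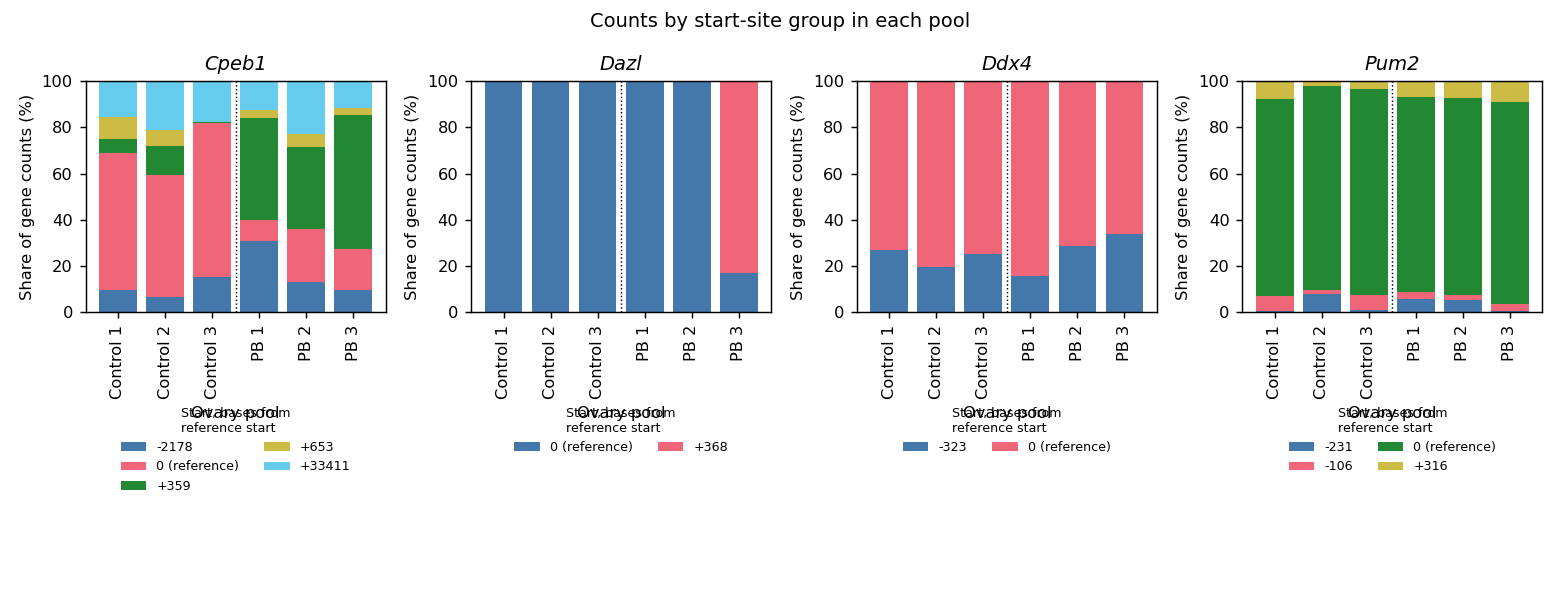
Share of each gene's counts (vertical axis, percent) by start-site group in the 6 pools (horizontal axis) for Cpeb1, Dazl, Ddx4 and Pum2, with the position of each start in bases from the reference start of that gene; groups under 1% in every pool are left out. For Cpeb1 the start at +359 holds 0.504% to 12.8% of counts in control and 35.6% to 58.2% in PB pools, and for Dazl PB 3 alone is assigned to the start at +368.

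Cpeb1 was the member whose counts were divided differently between start sites in these pools, although none of its starts was called by edgeR. Its 3 curated RefSeq transcripts begin at position 81454758 of chromosome 7 with a first exon of 125 bases, of which 15 are coding, and together they held 3164, 2690 and 3437 counts in control and 523, 943 and 1383 counts in PB pools. Another 4 predicted RefSeq transcripts begin 359 bases downstream with another first exon, and these held 320, 656 and 26 counts in control and 2560, 1469 and 4566 counts in PB pools. The groups did not overlap at either start, as for 10.3% of all start groups tested.

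As a share of the gene, the curated start accounted for 59.4%, 52.6% and 66.7% of counts in control and 8.99%, 22.8% and 17.6% in PB pools. The downstream start accounted for 6.01%, 12.8% and 0.504% in control and 44.0%, 35.6% and 58.2% in PB pools. An exact two-sided permutation test of either share gave p = 0.1, the smallest that 3 against 3 pools allow. Any share without overlap gives this value, and these starts were chosen after their counts were seen, so it adds no support. In edgeR the log2 fold change was -1.80 ± 0.36 at the curated start (SE, FDR = 0.684) and 3.12 ± 1.11 at the downstream start (FDR = 1.000), so neither was called, and 11 of 30084 start groups (0.0366%) were. DESeq2 gave an adjusted p of 4.01e-05 and 0.035 for them, in a fit that called 1.83% of start groups with an adjusted p.

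The signs were the same in all 12 alternatives fitted, with log2 fold changes of -2.08 to -1.54 for the curated and 2.57 to 4.20 for the downstream start, and without pools 2 the values were -2.00 and 4.20. From the curated and the downstream start, NM_007755.5 and XM_011250785.2 were compared base by base. They share 2986 bases, and what sets them apart is 125 bases in the first and 487 bases in the second, so no other bases tell them apart. XM_011250786.2, also at the downstream start, had 227, 533 and 0 counts in control and 952, 827 and 2435 in PB pools. Its 3′ end lies at position 81347428 and that of the curated transcripts at 81347026, so it differs from them at both ends. Of the tested member transcripts, 4 did not overlap between groups in CPM, as did 9.95% of all transcripts tested, each with higher values in PB pools, and these were XM_011250784.2, XM_011250785.2 and XM_011250786.2 of Cpeb1 and XM_006515277.2 of Pum2. XM_011250784.2, at the downstream start, had 6, 8 and 0 counts in control and 506, 188 and 575 counts in PB pools (6.47 ± 1.45, edgeR FDR = 0.707). XM_011250785.2 had 6, 62 and 0 counts in control and 727, 454 and 1062 in PB pools (5.13 ± 1.85, FDR = 1.000), and leaving out 1 pool moved its value between 4.54 (without control 3) and 7.78 (without control 2). NM_001252525.1, at the curated start, had the opposite sign, with 2090, 226 and 887 counts in control and 151, 141 and 251 in PB pools (-2.68 ± 0.89, FDR = 1.000), and here control pool 2 lay inside the PB range. Its value was -1.74 without control 1 and -3.18 without control 2. NM_007755.5, the Cpeb1 transcript with the most counts, had 814, 1819 and 1356 counts in control and 349, 42 and 1121 in PB pools, which overlapped.

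Dazl showed how far 1 pool can set a transcript value. NM_010021.5, its leading transcript, had 24471, 20359 and 22437 counts in control and 25216, 16171 and 660 counts in PB pools. XM_006523583.3, which begins 368 bases downstream with a different first exon, had 2 to 15 counts in 5 pools and 29315 in PB pool 3. The sum over the gene was 304 CPM in PB pool 3 and also in PB pool 1. The 2 models share 2749 bases, and 215 bases were found only in the first and 432 only in the second. NM_010021.5 was not called (-0.66 ± 1.17, edgeR FDR = 1.000), and XM_006523583.3 was removed by the filter on low counts and was not tested.

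The other Dazl transcript, NM_001277863.1, lacks 1 coding exon and did not vary in this way. It had 4794, 4205 and 5089 counts in control and 4939, 3361 and 5351 counts in PB pools (log2 fold change -0.10 ± 0.23, SE, edgeR FDR = 1.000). The exon it lacks has 51 bases, or 17 codons, at chr17:50284996-50285046 on the minus strand, and its sequence is shown because it alone separates the proteins of these 2 curated transcripts.
Dazl exon: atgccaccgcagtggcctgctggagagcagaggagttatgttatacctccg

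Ddx4 was divided likewise. NM_001145885.1 held 8733, 4847 and 9179 counts in control and 4720, 5662 and 701 counts in PB pools (-1.06 ± 0.85, edgeR FDR = 1.000). NM_010029.2 had 0 counts in 5 pools and 9419 in PB pool 3, and XM_011244619.2 had 3583 in control pool 2 and 5629 in PB pool 1 but at most 18 in the others. These 3 transcripts fall in 1 start-site group, with starts from position 112652269 to 112652310. Summed over that group, the counts were 8744, 8430 and 9182 in control and 10349, 5662 and 10138 in PB pools, of which PB pool 2 was low as in the gene sum (-0.07 ± 0.26, FDR = 1.000). NM_010029.2 lacks a coding exon of 78 bases, or 26 codons, at chr13:112641150-112641227 on the minus strand, shown here because the change of model in PB pool 3 turns on it.
Ddx4 exon: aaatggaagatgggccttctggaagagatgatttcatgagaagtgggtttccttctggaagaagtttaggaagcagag

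In Pum2, an assembled transcript that begins at position 8674365 of chromosome 12 held 86.6% of the counts, at 13927, 25731 and 19562 in control and 20754, 21333 and 24528 in PB pools (0.15 ± 0.18, edgeR FDR = 1.000). It lacks an exon of 237 coding bases that XM_006515277.2 has. XM_006515277.2 itself had 78, 118 and 44 counts in control and 1716, 1820 and 118 counts in PB pools (3.99 ± 1.14, FDR = 1.000), so PB pool 3 was at the level of control pool 2. XM_006515278.3, in the same start group, had 1184, 561 and 743 counts in control and 0, 0 and 2423 in PB pools. XM_006515277.2 differs from it only by runs of 38 and 6 non-coding bases, and the division of reads between them was not tested. Their start group, 316 bases downstream of the assembled start, had 1262, 679 and 787 counts in control and 1732, 1820 and 2601 counts in PB pools (1.09 ± 0.32, FDR = 1.000), and its share of the gene was 7.71%, 2.32% and 3.58% against 7.05%, 7.28% and 9.27%. The shares overlapped between groups, while the levels of this start group in CPM did not, as for 10.3% of all start groups tested. DESeq2 gave it an adjusted p of 0.039, in a fit that called 1.83% of start groups with an adjusted p.

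**Figure D5:**
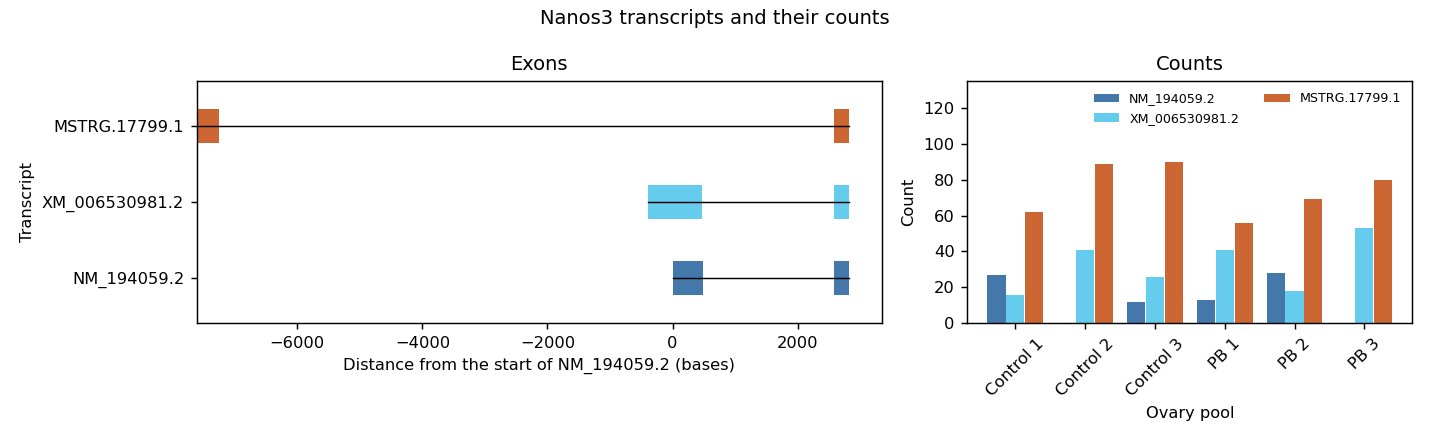
Left, exons of the 3 Nanos3 transcripts by distance in bases from the start of NM_194059.2, negative upstream. Right, their counts in the 6 pools, where the assembled MSTRG.17799.1 has 56 to 90 counts and is the highest bar in each pool.

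Nanos3 was the member for which the gene sum said least about the protein-coding message. Its assembled transcript joins an exon that starts 7606 bases upstream of NM_194059.2 to the last exon of the gene, and its exons hold 65 of the 534 coding bases (12.2%). It had 62, 89 and 90 counts in control and 56, 69 and 80 counts in PB pools, or 50.9% to 70.3% of the gene sum (-0.28 ± 0.32, edgeR FDR = 1.000). The RefSeq transcripts together had 43, 41 and 38 counts in control and 54, 46 and 53 counts in PB pools. These counts are not corrected for library size, and in TPM the RefSeq levels overlapped between groups. They were 0.773, 0.434 and 0.645 TPM in control and 0.891, 0.801 and 0.657 TPM in PB pools. The RefSeq sum alone gave a log2 fold change of 0.28 ± 0.21 (edgeR FDR = 0.917), opposite in sign to -0.07 for all transcripts. At these counts neither difference was detectable.

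Nanos1, on chromosome 19, has a single exon and a single transcript, so its gene sum carries no such division. Ybx2 was stable among its 7 transcripts, with NM_016875.2 at 2318, 2275 and 2060 counts in control and 2635, 1898 and 3565 counts in PB pools, or 91.5% of the gene (0.23 ± 0.22, edgeR FDR = 1.000). Of the 22 start groups of the 7 genes, 19 were tested, 0 were called by edgeR and 3 had an unadjusted p under 0.05 (3.99% of all start groups tested did), the pair in Cpeb1 and the one in Pum2.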

How the data were processed

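Total RNA from pooled E15.5 ovaries was sequenced as stranded libraries. According to the methods of the study and the submitters' processing notes, the authors aligned reads to mm10 with HISAT2 2.1.0, assembled and merged transcripts with StringTie 1.3.5 and RefSeq, and deposited unnormalized transcript counts from prepDE. These counts are estimates divided between overlapping transcripts. The authors' own fold changes and p-values (DESeq2 1.30.0) were not used. No per-sample column was left unused.

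Counts were summed by gene name, leaving out unnamed transcripts (3.05% to 4.49% of counts). Gene sums, transcripts and start-site sums were each fitted over all features with edgeR 4.0.16 (TMM, filterByExpr with a minimum count of 10 and total of 15, quasi-likelihood test) in R 4.3.3. DESeq2 1.42.0 and the other alternatives are given in the closing section. The edgeR fits of gene sums and transcripts were tested on simulated data, and the start-site and DESeq2 fits were not. CPM used TMM library sizes, and TPM used exon lengths from the deposited annotation. Coding bases came from GENCODE M21, and promoters from RefSeq, where all 7 genes matched.

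The members and gene lists were chosen with earlier results of these data known. All 7 genes are named. Transcripts named are the one with most counts per gene, any called and any with an unadjusted p under 0.05. Those singled out beyond this (the Dazl and Ddx4 switches, the Cpeb1 fragment) and the start-site sums were chosen after their values were seen. In the companion lists, the relatives are named (1 further relative is not reported here), and otherwise genes with an unadjusted p under 0.05, the 2 highest and 2 lowest fold changes and the 2 highest levels per length.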

Additional observations from a re-analysis of the deposited data

How the results depend on the processing

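None of the 7 genes and none of the companion genes was called under any alternative run, and all 266 recomputed values for single genes, transcripts and start groups comprised 249 that kept direction and call, 12 that changed sign and 5 that became called, all 5 in DESeq2. Leaving out 1 pool at a time moved the log2 fold change of Ddx4 between -0.18 and 0.17, of Dazl between -0.15 and 0.19, of Nanos3 between -0.14 and 0.039, of Cpeb1 between -0.040 and 0.31 and of the leading Pum2 transcript between -0.032 and 0.27, so these signs are undetermined. Without both pools 2, a choice made after seeing the data, Ddx4 was at 0.02 and Dazl at 0.04, and RefSeq transcripts alone put Nanos3 at 0.28 and Pum2 at 0.57.

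Gene calls in the whole table numbered 3, and 11 by DESeq2, 8 with RefSeq transcripts alone, 5 without the minimum fold, 10 without both pools 2, and 3 to 9 leaving out 1 pool (5 without control 1, control 2 or PB 3, and 9 without PB 2). Transcript calls numbered 17, and 1172 by DESeq2, 39 with the stricter filter, 2 without both pools 2, and 0 to 19 leaving out 1 pool (0 without control 1, 1 without control 3, 2 without PB 1, 9 without PB 3). Start-site calls numbered 11, and 662 by DESeq2, 5 with no filter, 3 without both pools 2, and 3 to 22 leaving out 1 pool (3 without control 1 or control 3, 4 without PB 1, 22 without PB 2 or PB 3). Among members DESeq2 called 2 of 52 transcripts and 3 of 19 start groups with an adjusted p. Over the whole table it called 1.85% of such transcripts and 1.83% of such start groups. The cause of these differences was not tested.

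The series description gives the control and PB library of a number the same mouse number, and whether this marks a pairing could not be settled. Deviations of same-numbered pools correlated at 0.09, 0.24 and 0.06, and control pool 1 correlated best with PB pool 3 (0.15). With the replicate number as a block, 0 genes, 0 transcripts and 0 start groups were called, while the SE of Ddx4 was 0.06 and that of Dazl 0.05, beside 0.22 and 0.21 without it. Nanos3 rested on 105 to 133 counts per pool.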
